A study of Mus musculus with 6 samples.

Results

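CHIR99021, an inhibitor of glycogen synthase kinase 3 (GSK3), was compared with its vehicle DMSO across all microRNA arms measured by small RNA sequencing in J1 mouse embryonic stem cells. Both libraries came from the J1 line, adapted to gelatin and grown without feeder cells in serum replacement medium with leukemia inhibitory factor (LIF) at 1000 U/ml. One culture received 3 µM CHIR99021 and the other 1 µL DMSO, each for 24 h. These were 2 of the 6 libraries of the study, chosen by their labels. Each group had 1 library from 1 line, so no spread between replicates was measured and no p-value is given. The other 4 libraries had 1 µL ddH2O as a second vehicle, 1 µM of BIO (another GSK3 inhibitor), 1 µM retinoic acid, or vitamin C. They enter here only beside the values of CHIR99021 and DMSO.

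GSK3 phosphorylates beta-catenin and so marks it for destruction. When a Wnt ligand binds its receptors, or when GSK3 is blocked by a compound, beta-catenin accumulates and acts in the nucleus with TCF and LEF factors. GSK3 inhibition is widely used to help hold mouse embryonic stem cells in self-renewal. MicroRNAs are short RNAs cut from hairpins by Drosha and Dicer. Either arm of a hairpin, called 5p or 3p, can be loaded into an Argonaute protein, and the seed, bases 2 to 8 of the loaded arm, does most of the pairing with target messages.

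The results turned on a small number of sequences, which are shown first with the seed in capitals (mature sequences from RefSeq, GRCm38.p6). The arms of the miR-211 hairpin, which lies in an intron of Trpm1 on chromosome 7, stood far above DMSO, as did miR-122-5p. miR-204-5p shares the seed of miR-211-5p and is shown for comparison.
miR-211-5p: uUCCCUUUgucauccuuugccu
miR-204-5p: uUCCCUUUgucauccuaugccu
miR-211-3p: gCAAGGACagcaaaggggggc

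The whole miR-211 hairpin follows, at chr7:64205806-64205911 on the plus strand, with the most abundant tag of each arm in capitals.
Mir211: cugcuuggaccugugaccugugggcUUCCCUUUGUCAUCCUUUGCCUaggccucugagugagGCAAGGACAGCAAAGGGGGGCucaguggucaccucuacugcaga

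Among the 4 abundant arms of the miR-181 family that share one seed, the arms from chromosomes 1 and 2 were lower in the CHIR99021 library and those from chromosome 8 were not.
miR-181a-5p: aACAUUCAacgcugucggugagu
miR-181b-5p: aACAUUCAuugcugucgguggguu
miR-181c-5p: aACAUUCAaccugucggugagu
miR-181d-5p: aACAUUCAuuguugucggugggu

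A second seed, shared by miR-25-3p, miR-92a-3p and miR-92b-3p, likewise held arms with different values.
miR-25-3p: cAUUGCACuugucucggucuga
miR-92a-3p: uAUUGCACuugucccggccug
miR-92b-3p: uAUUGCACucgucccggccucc

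The largest group of lower arms came from the imprinted Dlk1-Dio3 region of chromosome 12. Its arms do not share 1 seed, as the 4 shown here illustrate.
miR-485-3p: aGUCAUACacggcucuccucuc
miR-329-3p: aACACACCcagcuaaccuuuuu
miR-494-3p: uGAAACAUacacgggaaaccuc
miR-134-5p: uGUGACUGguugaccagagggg

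The last set holds a pair of arms with a high ratio from hairpins within protein-coding genes, Vezt for miR-331-3p and Hoxd3 with Hoxd4 for miR-10b-5p.
miR-331-3p: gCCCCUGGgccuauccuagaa
miR-10b-5p: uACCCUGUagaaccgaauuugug

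The DMSO library held 18870345 tags, of which 2155070 (11.4%, 95% Clopper-Pearson interval 11.41 to 11.43) matched a microRNA arm. The CHIR99021 library held 23758363 tags and 1428512 microRNA tags (6.01%, 6.003 to 6.022). Intervals here and below cover counting error only, and PCR copies were not marked. Over the other 4 libraries the share ran from 3.76% in retinoic acid to 9.43% in BIO. Levels are given as counts per 1000000 microRNA tags (CPM), so they describe the makeup of the microRNA pool and not its size. For an arm with no tag, the upper limit was 1.39 CPM in DMSO and 2.1 CPM in CHIR99021 (3 counts). Arms entered the comparison at 10 CPM or above in either library. They were called higher or lower from a ratio of 2-fold upward, provided that its exact conditional 95% interval excluded 1. In bulk RNA, fewer cells with a microRNA and less of it per cell cannot be told apart.

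Of 1265 arms seen in the series, 480 were compared. In the CHIR99021 library 30 arms were higher (6.25%) and 59 were lower (12.3%). The median log2 ratio of all 480 arms was -0.11, with an SD across arms of 0.92. Of these arms 269 (56.0%) had a log2 ratio below 0. With counts scaled to all tags of each library in place of microRNA tags, 5 arms were called higher and 267 lower. That scaling moved the log2 ratios of the 480 arms by a median of -0.93, and directions below are relative to the microRNA pool. Between the 2 vehicles, 24 of 484 arms were higher in ddH2O (4.96%) and 11 lower (2.27%). Against ddH2O the CHIR99021 library had 32 of 495 arms higher (6.46%) and 68 lower (13.7%). Restricted to 100 CPM or more, 66.8% of 250 arms differed by under 1.5-fold between CHIR99021 and DMSO, and 81.5% of 254 arms did so between the vehicles.

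**Figure D1:**
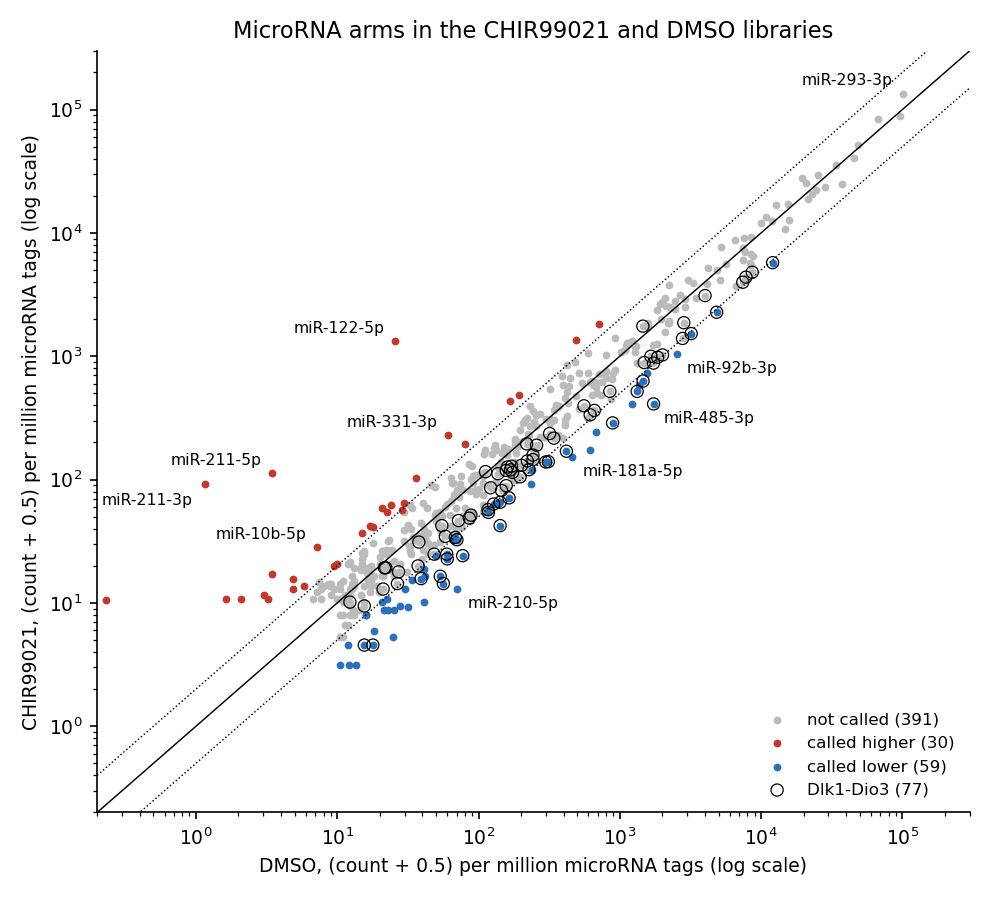
Level of each of the 480 compared arms in the CHIR99021 library (vertical) against the DMSO library (horizontal), both as CPM of (count + 0.5) on log scales. The solid line marks equal levels and the dotted lines 2-fold. Red points (30) were called higher, blue points (59) lower, and black rings mark the 77 Dlk1-Dio3 arms, which lie mostly below the solid line.

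Of the 89 called arms, 46 were called in the same direction against DMSO and against ddH2O, 16 of them higher and 30 lower. None had opposite calls, and 5 had a ratio on the other side of 1 against ddH2O. At 100 CPM or more, 6 arms were higher against both vehicles. These were miR-122-5p, miR-211-5p, miR-331-3p, miR-378c-5p, miR-6236-5p and miR-3470a-5p. The 12 that were lower against both were miR-485-3p, miR-669a/669o-3p, miR-758-5p, miR-329-3p, miR-181a-5p, miR-181b-5p, miR-494-3p, miR-92b-3p, miR-1a-3p, miR-134-5p, miR-299a-5p and miR-154-5p.

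The label of embryonic stem cells was checked against marker microRNAs. The miR-290-295 cluster, the main microRNA cluster of mouse embryonic stem cells, made up 342476 CPM in the CHIR99021 library and 291810 CPM in DMSO. Its 14 compared arms had a median log2 ratio of 0.41, and none was called. miR-293-3p, its most abundant arm, was at 134979 CPM with CHIR99021, 101118 CPM in DMSO and 101958 CPM in ddH2O, a ratio of 1.33 to DMSO (1.327 to 1.343). The CHIR99021 library was the highest of these 3 for that arm. miR-295-3p stood at 27635 CPM against 19586 CPM, while miR-290a-5p was at 88707 CPM against 96000 CPM. The cluster's sum was 307622 CPM in BIO and 272761 CPM in ddH2O. The miR-302 cluster, which marks the early post-implantation embryo, was low in both libraries. Its 4 compared arms summed to 135 CPM with CHIR99021 and 114 CPM in DMSO, and miR-302a-5p was at 75.6 and 68.2 CPM. miR-367-3p, from the same cluster, had 3 counts in CHIR99021 and 1 in DMSO.

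Marker lists of other cell types were present at lower sums. The neural list summed to 11199 CPM with CHIR99021 and 11691 CPM in DMSO, the fibroblast and mesenchymal list to 10726 and 10705 CPM, the endoderm and liver list to 5511 and 5223 CPM, the muscle and heart list to 1070 and 1605 CPM, and the blood cell list to 351 and 310 CPM. Some defining members had no tag in either library. Among these were the arms of miR-216b, miR-217 and miR-153, as well as miR-214-3p and miR-133b-3p. miR-133a-3p, a muscle microRNA, had no tag in CHIR99021 and 2.32 CPM in DMSO. miR-1a-3p, made from the same muscle transcripts, was at 580 CPM with CHIR99021 and 1376 CPM in DMSO. The part of other cell types in any result was not tested.

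miR-122-5p is the main microRNA of hepatocytes and is known for its part in cholesterol metabolism. Its level was 1324 CPM in the CHIR99021 library, and in the other 5 libraries it lay between 22.4 CPM (BIO) and 54.9 CPM (retinoic acid). In counts these were 1892 tags with CHIR99021, 55 in DMSO, 58 in ddH2O, 47 in BIO, 40 in retinoic acid and 58 in vitamin C. The ratio to DMSO was 51.9 (39.7 to 69.2). The CHIR99021 library stood alone, with no overlap with any other library. Other arms of the endoderm and liver list were not higher. miR-192-5p, an arm of gut and liver, was at 4124 CPM against 5088 CPM in DMSO, and miR-375-3p, an arm of pancreatic islets, was at 29.4 CPM against 48.3 CPM. miR-194-2-5p, from the hairpin next to miR-192, was called lower at 18.6 CPM against 40.6 CPM. Of the 5 compared arms of the list 4 had a log2 ratio below 0, beside 56.0% of all arms, and the median was -0.69.

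The opposite arm, miR-122-3p, had 1 tag in CHIR99021 and 0 in DMSO. The ends of miR-122-5p also differed between the libraries. Of all its tags in CHIR99021, untemplated ones included, 35.8% were the 22-base form, 24.6% the 21-base form, 19.7% the templated 23-base form and 13.2% a 23-base form ending in an added A. In DMSO the 22-base form made up 68.9%, from 42 tags, so these shares rest on few tags. The annotation places miR-122 in an exon of the long noncoding RNA AC157910.3.

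Both arms of the miR-211 hairpin were higher. miR-211-5p is known from melanocytes and retinal pigment cells, where it is made with the channel gene Trpm1. It stood at 112 CPM (160 tags) in CHIR99021, 13.8 CPM (29 tags) in BIO and 3.25 CPM (7 tags) in DMSO. The ddH2O, retinoic acid and vitamin C libraries had 1, 1 and 3 tags. The ratio of CHIR99021 to DMSO was 34.5 (16.4 to 87.2). miR-211-3p stood at 91 CPM (130 tags) in CHIR99021, 11.4 CPM (24 tags) in BIO and 0.928 CPM (2 tags) in DMSO, and it had 3 tags in ddH2O, 0 in retinoic acid and 4 in vitamin C. Its ratio to DMSO was 98.1 (26.6 to 818), an interval set by the 2 DMSO tags. CHIR99021 and BIO, the 2 GSK3 inhibitors, were thus the 2 libraries with the most tags of both arms. Their doses were 3 µM and 1 µM, so no difference between the compounds is read from these values.

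The 2 arms differed in their ends. Of the 160 templated miR-211-5p tags in CHIR99021, 138 were the 22-base sequence printed above and 11 were 1 base shorter. Of the 130 templated miR-211-3p tags, 48 (36.9%) were the 21-base sequence printed above, 22 had 22 bases and 20 had 19 bases. Tags with added 3' bases that the hairpin does not encode, which are not in these counts, made up 52.7% of all miR-211-3p tags and 5.33% of all miR-211-5p tags. miR-204-5p, from another intron-borne hairpin of the Trpm gene family, had 9 tags in CHIR99021, 1 in DMSO and 7 in ddH2O. It stayed under the 10 CPM needed for comparison, at 6.3 CPM with CHIR99021.

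**Figure D2:**
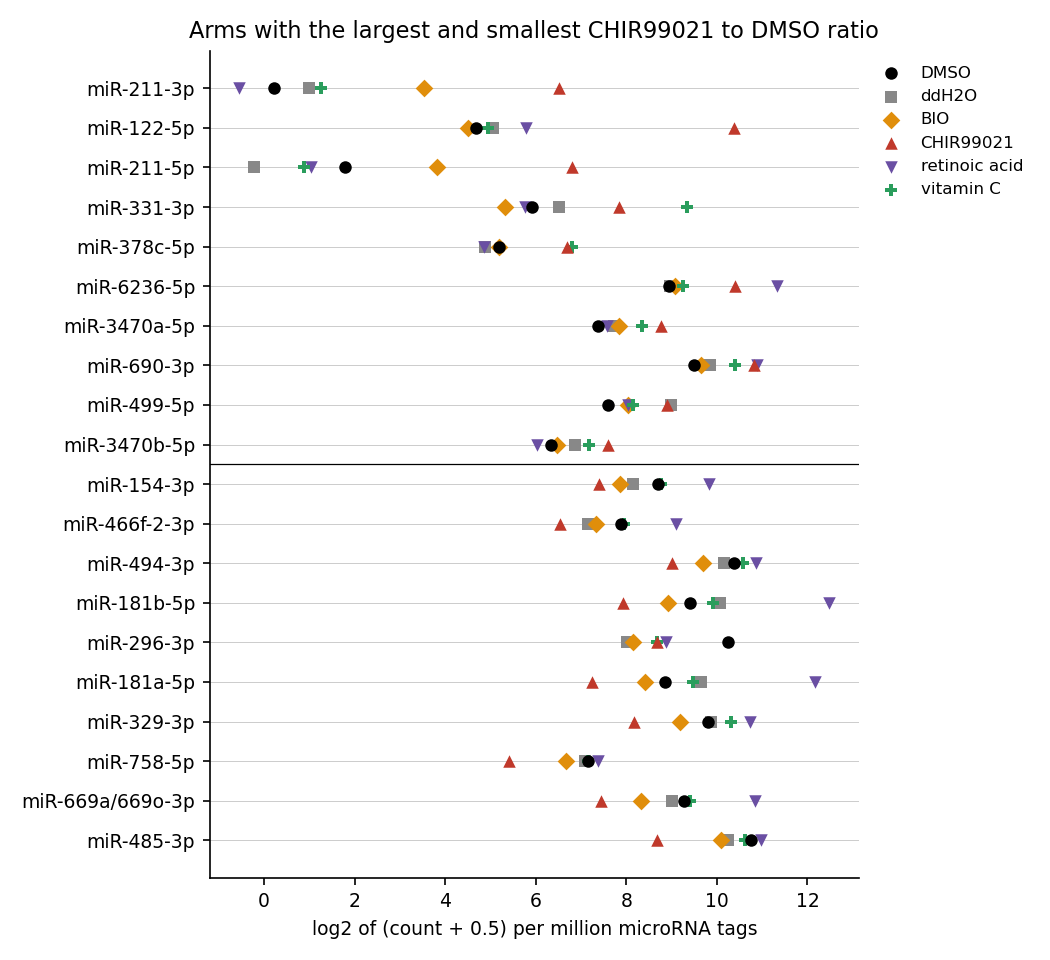
Level of the arms at 100 CPM or more with the largest and smallest called ratio of CHIR99021 to DMSO, with miR-211-3p added, in all 6 libraries as log2 CPM of (count + 0.5). One marker stands for 1 library. For miR-122-5p and both miR-211 arms the CHIR99021 marker lies to the right of all others, and for miR-485-3p it lies to the left of all others.

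Further arms above 100 CPM were higher by 2.42-fold to 3.78-fold. miR-331-3p, from a hairpin within Vezt on chromosome 10, was at 228 CPM with CHIR99021, 60.3 CPM in DMSO and 90.9 CPM in ddH2O. Its ratio to DMSO was 3.78 (3.08 to 4.67). The 5p arm of that hairpin was at 16.1 CPM against 12.5 CPM, so the arms were not raised alike. miR-378c-5p was at 104 CPM against 36.1 CPM, a ratio of 2.86 (2.16 to 3.82). All of its CHIR99021 tags also matched another microRNA and were split between them. With such tags left out its log2 ratio was -2.21, so that call rests on shared tags. miR-499-5p, from an intron of the muscle myosin gene Myh7b, was at 480 CPM against 194 CPM in DMSO and 510 CPM in ddH2O, so CHIR99021 and ddH2O lay close together and above DMSO.

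The remaining arms of this group had 22 to 38 different tags per arm with CHIR99021, whereas miR-331-3p had 4. Such numbers were not particular to them, since miR-320-3p had 31. miR-690-3p had 22 from 2586 tags, close to miR-183-5p with 21 from 2450 tags. miR-3470b-5p had 38 from 277 tags, and the 4 of miR-331-3p came from 326 tags. miR-6236-5p was at 1347 CPM against 490 CPM in DMSO, with 51.7% and 46.4% of its tags at 18 or 19 bases. miR-3470a-5p was at 432 CPM against 167 CPM, and its most abundant tag made up 15.9% and 11.4% of its tags. miR-3470b-5p was at 194 CPM against 80.3 CPM, with 22.7% and 13.9% of tags at 18 or 19 bases. miR-690-3p was at 1810 CPM against 718 CPM in DMSO and 928 CPM in ddH2O. Nuclear transfer RNA and the large ribosomal RNAs were not searched for these tags. Across the whole libraries, tags of 18 or 19 bases were 15.8% of all tags with CHIR99021 and 10.9% in DMSO, and their part in these ratios was not tested. Among microRNA tags that share was 3.33% with CHIR99021, 4.95% in DMSO and 3.39% in ddH2O.

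Below 100 CPM, arms linked to Hox genes and to the Wnt pathway were among those called higher. miR-10b-5p, whose hairpin lies in introns of Hoxd3 and Hoxd4, was at 28.0 CPM (40 tags) with CHIR99021, 6.96 CPM in DMSO, 6.86 CPM in ddH2O and 5.72 CPM in BIO. Its ratio to DMSO was 4.02 (2.17 to 7.84), and it was called against both vehicles. The Hox list as a whole had 4 compared arms, 1 higher and 0 lower, beside 6.25% higher and 12.3% lower over all arms. Its median log2 ratio was 0.86. miR-10a-5p was at 902 CPM against 484 CPM in DMSO and 1158 CPM in ddH2O. miR-196a-5p was at 693 CPM against 390 CPM in DMSO and 638 CPM in ddH2O. For these 2 arms DMSO was lower than both other libraries, and against ddH2O the list median was -0.05.

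miR-32-3p was at 58.8 CPM against 20.4 CPM in DMSO and 21.2 CPM in ddH2O, a ratio of 2.88 (1.98 to 4.25). All of its tags had 18 or 19 bases in both libraries, so it could not be compared on tags of 20 to 24 bases. miR-147-3p was at 16.8 CPM (24 tags) against 3.25 CPM in DMSO. The other hairpin with both arms called higher was miR-455, from an intron of the collagen gene Col27a1, with miR-455-5p at 11.2 CPM against 2.78 CPM and miR-455-3p at 10.5 CPM against 1.39 CPM. In ddH2O these arms stood at 11.4 and 4.58 CPM, so the 5p arm did not differ from that vehicle. miR-3473a-3p had 10.2 CPM with CHIR99021 and no templated tag in DMSO. Its 14.5 templated tags with CHIR99021, after the split of shared ones, came from 8 sequences. Of them 65.5% had 18 or 19 bases and 31.0% were shared with other arms. Tags with untemplated ends made up 64.6% of all its tags with CHIR99021 and 100% in DMSO, so no on and off difference is read.

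A list of microRNAs reported as linked to Wnt or beta-catenin signalling had 22 compared arms, 3 higher and 3 lower, with a median log2 ratio of 0.14. Called arms made up 13.6% in each direction, beside 6.25% higher and 12.3% lower over all arms. The higher members were miR-135b-5p, reported to act on the Apc message, at 53.9 CPM against 22.3 CPM, miR-182-3p at 36.4 CPM against 14.9 CPM (98.1% and 96.9% of its tags at 18 or 19 bases), and miR-181d-3p at 41.3 CPM against 16.7 CPM. The 3 lower ones were arms of miR-181a and miR-181b. miR-34a-5p, which is induced by p53 and acts on Wnt pathway messages, was at 253 CPM against 196 CPM in DMSO and 269 CPM in ddH2O. The main arm of the sensory cluster, miR-182-5p, was at 9035 CPM against 7562 CPM. All 6 arms of that cluster, which also holds miR-183 and miR-96, had log2 ratios above 0, between 0.04 and 1.28.

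The arms of the Dlk1-Dio3 region were lower as a group. This imprinted domain on distal chromosome 12 carries more microRNA hairpins than any other list used here except the Sfmbt2 intron. They are transcribed from the maternal chromosome within long noncoding RNAs such as Meg3, Rian and Mirg, and their silencing is known from some pluripotent lines. Of 77 compared arms, 26 (33.8%) were lower and 0 higher, beside 8.19% lower among the 403 arms outside the region. In all, 75 of 77 arms had a log2 ratio below 0. The median was -0.85 in the region and 0.03 outside it. Summed over the region, the level was 43210 CPM with CHIR99021, 78957 CPM in DMSO, 72036 CPM in ddH2O and 52153 CPM in BIO. CHIR99021 had the lowest of these 4 sums. Against ddH2O the median was -0.78, with 22 arms called lower and 1 higher, and between the vehicles it was -0.12. BIO had 11 of these arms lower than DMSO, with a median of -0.51, beside 25 of 472 arms over the whole BIO comparison (5.3%) and 9 higher (1.91%). The BIO and CHIR99021 values share the DMSO library.

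**Figure D3:**
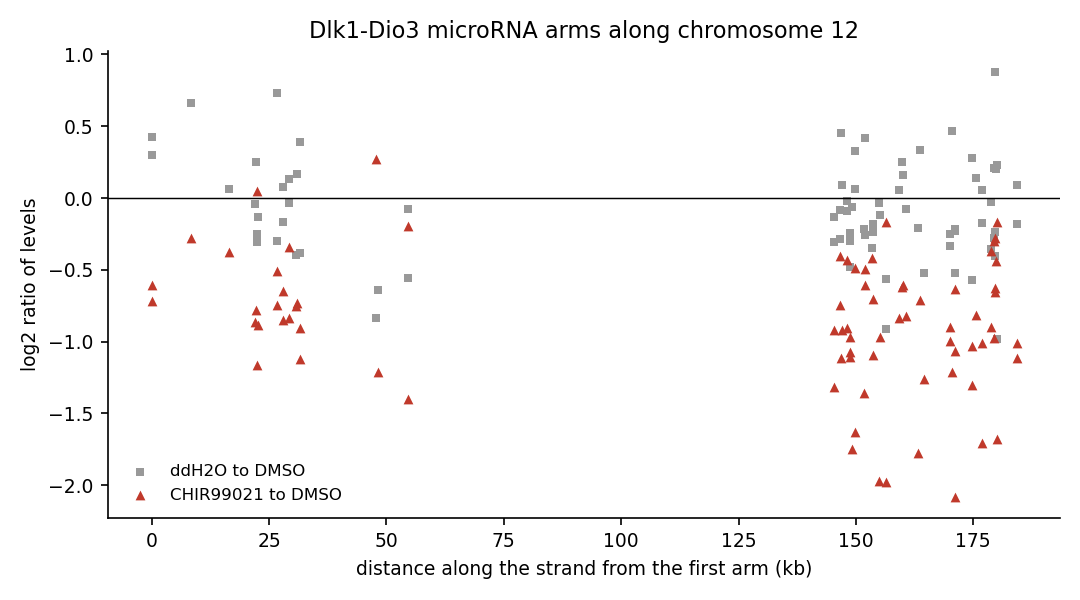
Log2 ratio of each of the 77 Dlk1-Dio3 arms (vertical) against its distance from the first arm of the region in kb (horizontal). Red triangles are CHIR99021 to DMSO and grey squares ddH2O to DMSO. Of the triangles 75 lie below 0 in both the proximal and the distal part, whereas the squares scatter around 0.

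The 5 arms of the region most abundant in DMSO were 1.78-fold to 2.13-fold lower. miR-323-3p was at 5739 CPM with CHIR99021, 12070 CPM in DMSO, 9819 CPM in ddH2O and 6212 CPM in BIO, and it was 2.10-fold lower than in DMSO (2.05 to 2.16). Tags of 18 or 19 bases made up 50.15% of its tags with CHIR99021 and 57.68% in DMSO. miR-433-3p was at 4799 CPM against 8660 CPM, miR-127-3p at 4379 CPM against 7813 CPM, and miR-382-5p at 3982 CPM against 7421 CPM. The last 3 fell short of the 2-fold rule, at 1.78-fold to 1.86-fold lower. miR-543-3p was at 2274 CPM against 4846 CPM. For all 5 of these arms the CHIR99021 library lay under both vehicles, and miR-543-3p was 2.13-fold lower than in DMSO. Other abundant arms differed by less, such as miR-541-5p at 3103 CPM against 4012 CPM (log2 ratio -0.37) and miR-376a-3p at 1870 CPM against 2840 CPM (-0.60).

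A few arms were lower by more. miR-485-3p was at 410 CPM with CHIR99021, 1734 CPM in DMSO, 1206 CPM in ddH2O and 1094 CPM in BIO, which is 4.23-fold lower than DMSO (3.87 to 4.62). The CHIR99021 library was the lowest of the 4. Its partner miR-485-5p was at 1527 CPM against 3201 CPM, 2.10-fold lower, so the 3p arm differed by more than the 5p arm of the same hairpin. The hairpin lies within Mirg at chr12:109734902-109734974 on the plus strand, and its arms are in capitals here.
Mir485: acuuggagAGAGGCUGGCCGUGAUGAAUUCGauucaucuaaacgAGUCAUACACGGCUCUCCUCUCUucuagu

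miR-758-5p was at 42.0 CPM against 142 CPM, miR-329-3p at 288 CPM against 889 CPM, and miR-494-3p at 519 CPM against 1327 CPM. miR-134-5p, reported to act on the messages of Nanog and Sox2, was at 629 CPM with CHIR99021, 1461 CPM in DMSO and 2017 CPM in ddH2O. That is 2.32-fold lower than DMSO (2.155 to 2.502). Of the 122 hairpins with both arms compared as a pair, 5 had both arms called lower, all in this region: miR-485, miR-323, miR-154, miR-377 and miR-3072. Outside the region, miR-181a-2-3p and miR-181a-5p were also both called lower, but that 5p arm is shared by hairpins on chromosomes 1 and 2.

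Both ends of the region had medians below 0. The proximal hairpins from miR-770 to miR-136 (chr12:109563710-109595385) had 19 compared arms and a median of -0.74. The distal hairpins from miR-379 to miR-3072 (chr12:109709065-109747949) had 54 arms, 22 lower, all 54 with a log2 ratio below 0, and a median of -0.92. Between them, the 4 arms from miR-341 to miR-370 had a median of -0.70. Their median was -0.60 for ddH2O to DMSO and -0.34 for CHIR99021 to ddH2O. They summed to 1866 CPM with CHIR99021 and 1702 CPM in DMSO. These arms held one of the 2 exceptions, miR-341-3p at 0.27, which was called higher against ddH2O (log2 ratio 1.11). The other exception was miR-540-5p at 0.05. By base composition, the median ran from -0.90 for arms under 40% G and C to -0.74 for arms at 60% or more, while that of arms outside the Dlk1-Dio3 and Sfmbt2 lists ran from 0.10 to 0.01. miR-342-3p, from an intron of Evl on the same chromosome (chr12:108658680-108658703), lies outside the region and is not in the list. It was lower at 734 CPM against 1554 CPM, while the other arm of its hairpin, miR-342-5p, was at 107 CPM in both libraries. Over all of chromosome 12, the 77 arms of the region included, 27 of 86 compared arms were lower and 77 had a log2 ratio below 0. The decrease is therefore not read as reaching beyond the region.

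Outside chromosome 12, the miR-181 arms differed by locus. miR-181a-5p was at 151 CPM with CHIR99021, 460 CPM in DMSO, 806 CPM in ddH2O and 338 CPM in BIO, and it was 3.04-fold lower than in DMSO (2.62 to 3.54). miR-181b-5p was at 242 CPM against 678 CPM in DMSO, 1068 CPM in ddH2O and 481 CPM in BIO, 2.80-fold lower than in DMSO (2.49 to 3.15). For both arms the CHIR99021 library was the lowest of these 4 libraries. miR-181a-2-3p, which only the hairpin on chromosome 2 can give, was at 9.80 CPM against 40.8 CPM. From the locus on chromosome 8, in an intron of Nanos3, miR-181d-5p was at 25484 CPM against 20843 CPM and miR-181c-5p at 1320 CPM against 1212 CPM. Since miR-181d-5p dominates, the sum over this seed was 27198 CPM with CHIR99021 and 23192 CPM in DMSO.

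The arms sharing the miR-25 seed also differed, here mostly in size. Of 5 compared arms 4 had a log2 ratio below 0, beside 56.0% of all arms. The sum over the seed was 53643 CPM with CHIR99021 and 64584 CPM in DMSO. miR-92b-3p, from its own hairpin on chromosome 3, was at 1033 CPM with CHIR99021, 2522 CPM in DMSO, 2714 CPM in ddH2O and 2089 CPM in BIO, 2.44-fold lower than DMSO (2.30 to 2.59). Its partner miR-92b-5p was at 449 CPM against 867 CPM. miR-92a-3p, of the miR-17-92 and miR-106a-363 clusters that are linked to proliferation, was at 10777 CPM against 14847 CPM. miR-25-3p, from a hairpin within the replication gene Mcm7, was at 40479 CPM against 45816 CPM. The list of miR-17-92 and its paralogs had 24 compared arms, of which 1 was higher and 0 were lower. Over all arms 6.25% were higher and 12.3% lower. The median of the list was 0.07.

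miR-1a-3p was lower at 580 CPM with CHIR99021 against 1376 CPM in DMSO, 2818 CPM in ddH2O and 1161 CPM in BIO. It was 2.37-fold lower than in DMSO (2.20 to 2.57). miR-206-3p, which shares its seed, was at 9.10 CPM against 27.4 CPM. With miR-499-5p higher than DMSO, the muscle and heart list had 1 arm higher and 2 lower of 3, beside 6.25% higher and 12.3% lower over all arms. A list of 3 arms is too small for its shares to be read.

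Of 15 compared arms in the neural list 0 were higher and 2 (13.3%) lower, beside 12.3% lower over all arms, and the median was -0.37. miR-124-3p, the main microRNA of neurons, was at 3772 CPM with CHIR99021, 2234 CPM in DMSO, 2939 CPM in ddH2O and 3310 CPM in BIO, 1.69-fold higher than DMSO (1.62 to 1.76). miR-9-5p was at 84.7 CPM against 152 CPM in DMSO and 250 CPM in ddH2O, and miR-128-3p at 6727 CPM against 8550 CPM. The defining neural arms thus lay on both sides of DMSO. Of the let-7 family, whose maturation Lin28 blocks in stem cells, 8 of 9 arms had a log2 ratio below 0, beside 56.0% of all arms. None of the 9 was called, and their median was -0.28. let-7a-5p was at 12701 CPM against 15838 CPM in DMSO and 12920 CPM in ddH2O, so CHIR99021 and ddH2O nearly coincided.

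In the cluster within the Sfmbt2 intron on chromosome 2, a large rodent family of repeated hairpins, the 2 arms of the hairpins separated. Of the 14 compared 5p arms 1 was higher and 0 lower, and their median log2 ratio was 0.47. Of the 15 compared 3p arms 0 were higher and 9 lower, all 15 were below 0, and their median was -1.12. These counts cover every compared arm within the cluster's span, with 3 arms (miR-466f-1-3p, miR-466f-2-3p and miR-466f-3-3p) that the list plotted below leaves out. Over the whole comparison, this cluster included, lower calls fell on 26 of 260 5p arms and 33 of 219 3p arms. Higher calls there numbered 17 for 5p and 13 for 3p, and the log2 medians were -0.10 and -0.17. Part of the cluster's split was present between the vehicles. There, its ddH2O to DMSO medians were 0.44 for 5p arms and -0.32 for 3p arms. Against ddH2O the CHIR99021 medians were 0.01 and -0.62. Among the 3p arms, miR-669a/669o-3p was at 173 CPM with CHIR99021, 616 CPM in DMSO and 511 CPM in ddH2O, 3.56-fold lower than DMSO (3.11 to 4.10). miR-467a/467d-3p was at 313 CPM against 600 CPM. Among the 5p arms, miR-669c-5p, the most abundant of the cluster, was at 17233 CPM against 15593 CPM. These hairpins are near copies of each other, and tags that fit several were split evenly.

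**Figure D4:**
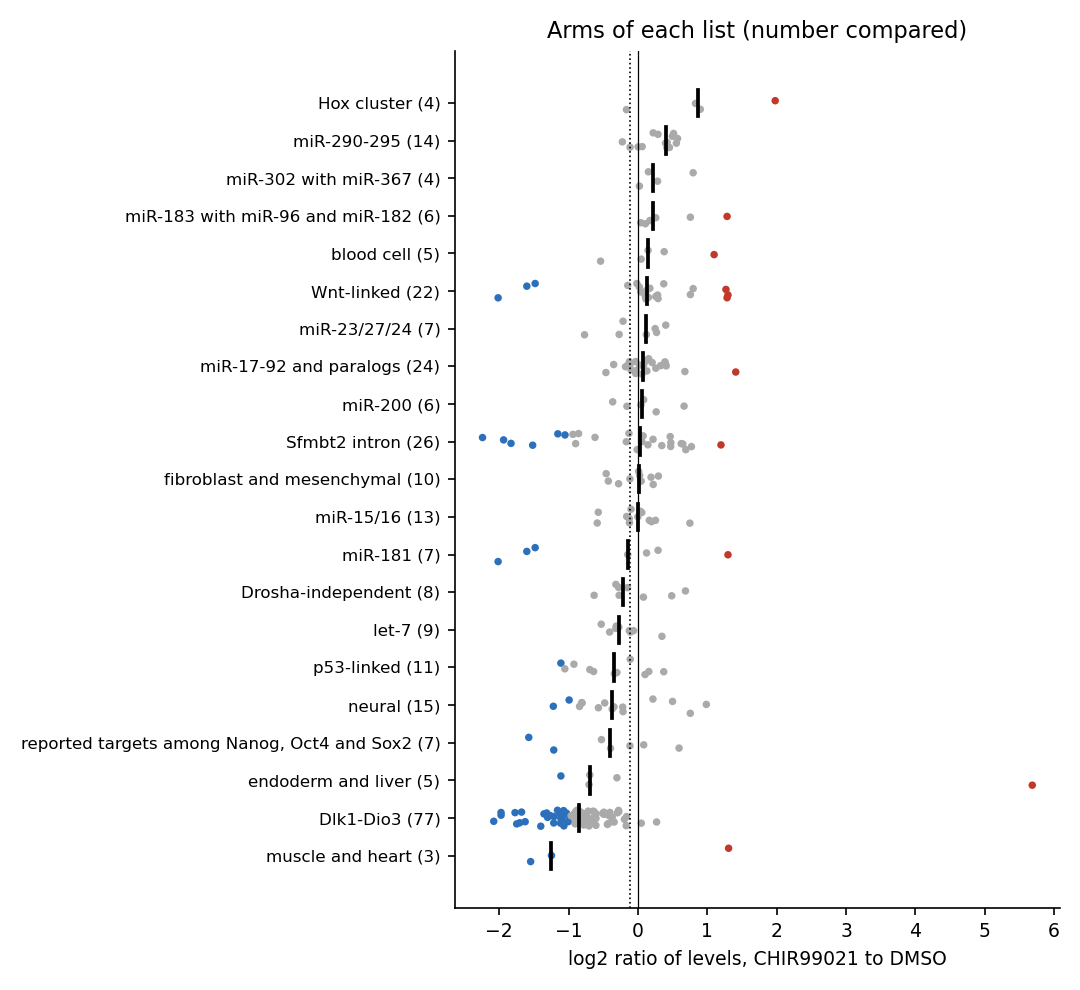
Log2 ratio of CHIR99021 to DMSO for every compared arm of 21 lists, 1 row per list, with the number of arms compared in brackets. Points are arms, coloured red when called higher and blue when called lower, black bars are list medians, and the dotted line is the median of all 480 arms (-0.11). The Dlk1-Dio3 arms lie almost wholly to the left of 0, and the point far to the right in the endoderm and liver row is miR-122-5p.

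Among single arms that stood apart from their partners, miR-210-5p was at 12.6 CPM with CHIR99021, 70.1 CPM in DMSO, 92.7 CPM in ddH2O and 55.3 CPM in BIO, and it was 5.56-fold lower than in DMSO (3.40 to 9.64). Its partner miR-210-3p, the main arm and a known marker of low oxygen, was at 736 CPM against 895 CPM. miR-296-3p was at 410 CPM with CHIR99021, 1220 CPM in DMSO, 257 CPM in ddH2O and 285 CPM in BIO. Tags of 18 or 19 bases made up 86.15% of its tags with CHIR99021 and 95.4% in DMSO. DMSO was the high library for that arm, and CHIR99021 lay above ddH2O. The call for miR-296-3p therefore held only against DMSO. Over the 122 hairpins with both arms compared, 35 had both arms above 0 on the log2 scale, 54 both below and 33 one on each side, and in 22 the arms differed by 1 or more.

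The remaining lists had few calls, and over all arms 6.25% were higher and 12.3% lower. The miR-15/16 family, linked to the cell cycle, had 0 called of 13 and a median of -0.002, and miR-16-5p was at 2828 CPM against 2468 CPM. The paralogous miR-23/27/24 clusters had 0 of 7 and a median of 0.12, the epithelial miR-200 family 0 of 6 and 0.06, and the fibroblast and mesenchymal list 0 of 10 and 0.02. Against ddH2O the fibroblast median was -0.55, and its arm miR-21a-5p was at 4960 CPM with CHIR99021, 4877 CPM in DMSO and 7349 CPM in ddH2O. The p53-linked list had 1 lower of 11 (9.09%) and a median of -0.34. Hairpins made without Drosha had 0 of 8 called and a median of -0.21, but against ddH2O 2 were higher and the median was 0.48. miR-320-3p, the most abundant, was at 35612 CPM with CHIR99021, 33706 CPM in DMSO and 21627 CPM in ddH2O. Of 53 seeds held by more than 1 compared arm, 4 had a summed level at most 0.5 times that of DMSO and 0 had one at least 2 times higher. The 4 included the seed of miR-329-3p and that of miR-1a-3p with miR-206-3p.

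The ends of the microRNA tags were also compared. Tags with 1 to 3 bases at the 3' end that the hairpin does not encode made up 12.5% of microRNA tags with CHIR99021, 10.8% in DMSO and 12.3% in ddH2O. In BIO and vitamin C they made up 11.8% and 11.7%, and in retinoic acid 15.7%. A single added C was found on 0.527% of tags with CHIR99021 (0.515 to 0.538), 0.116% in DMSO (0.112 to 0.121) and 0.125% to 0.138% in the other 4 libraries. The CHIR99021 library was thus alone in this share. A single added G stood at 1.62% with CHIR99021, 0.615% in DMSO and 4.06% in retinoic acid, so CHIR99021 was not the highest. Of 83 arms at 1000 CPM or more in CHIR99021 and DMSO, 44 had a larger G share with CHIR99021. The medians over these arms were 0.0704% with CHIR99021 and 0.0528% in DMSO. The usual additions by terminal uridylyl and adenylyl transferases, a single U (read as T) or A, were at 3.57% and 3.71% with CHIR99021 and 3.76% and 3.55% in DMSO.

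**Figure D5:**
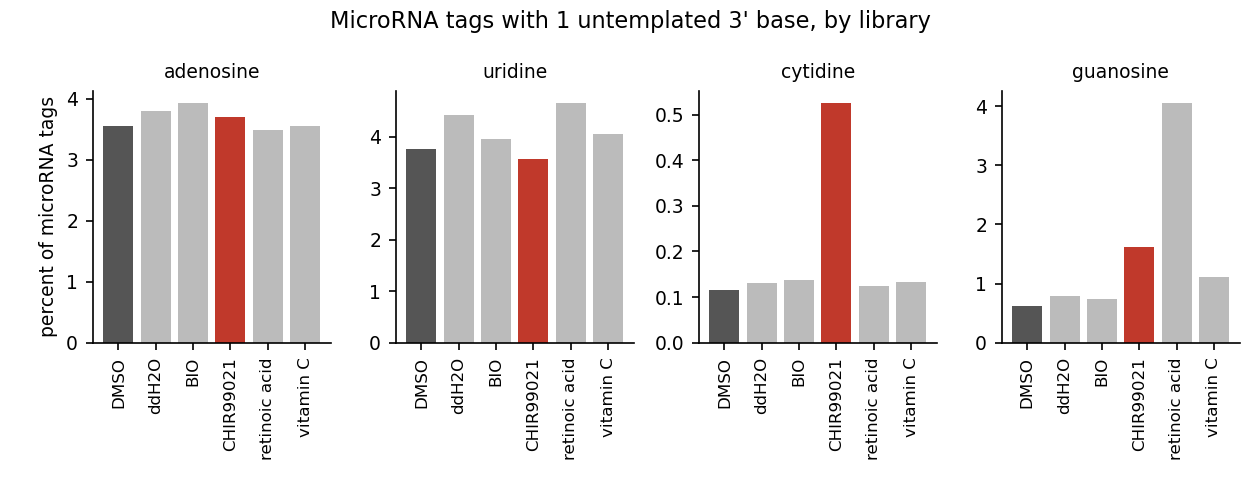
Share of microRNA tags (percent, vertical, each panel on its own scale from 0) with 1 added 3' base that the hairpin does not encode, for each of the 6 libraries, with adenosine, uridine, cytidine and guanosine in separate panels. Bars are single libraries, red for CHIR99021 and dark grey for DMSO. The cytidine share was 0.527% with CHIR99021 and at most 0.138% elsewhere.

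The added C was spread over many arms but unevenly. Of 83 arms at 1000 CPM or more in both libraries, 66 had a larger share with CHIR99021, with medians over arms of 0.143% and 0.0425%. For miR-25-3p the share was 2.36% with CHIR99021 and 0.00396% in DMSO, for miR-185-5p 3.17% and 0.144%, and for miR-744-5p 2.69% and 0.0890%. For miR-295-3p it was 0.511% and 0.580%, so that arm showed no excess. Arm levels given here use tags without added bases. With such tags included 30 arms were called higher and 61 lower, and 24 and 53 of these were also called without them.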

How the data were processed

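The deposited files list, per library, each distinct tag of 18 to 44 bases with its raw read count, per the file contents; the submitters' processing notes name the mouse build mm9, and the trimming and counting tools are not given in the sources used here. From these deposited counts, tags of 18 to 26 bases were matched exactly to 1174 named microRNA hairpins of GENCODE M21 (GRCm38), after removal of tags matching ribosomal, mitochondrial, small nuclear or small nucleolar RNA. An arm was the most abundant tag with all tags starting within 2 bases of it, and tags of several arms were split evenly. Log2 ratios used (count + 0.5) scaled to 1000000 microRNA tags. Ratios carry exact conditional binomial (Clopper-Pearson) 95% intervals. edgeR 4.0.16 and DESeq2 1.42.0 served for alternative scaling only, since groups of 1 library allow no test, and the calling step was tested on simulated data. Python 3.11.15, scipy 1.17.1 and R 4.3.3 were used. Named arms were those at 100 CPM or more with the 10 largest and 10 smallest called ratios, those called against both vehicles, the 10 most abundant, up to 4 of each list, and hairpins with both arms called. Others, namely miR-10b-5p, miR-32-3p, miR-147-3p, miR-3473a-3p, miR-135b-5p, miR-182-3p, miR-181d-3p, miR-206-3p, miR-194-2-5p, miR-375-3p, miR-210-5p, miR-342-3p, miR-543-3p, miR-541-5p, miR-376a-3p, miR-342-5p, miR-466f-1-3p, miR-466f-3-3p, miR-185-5p and miR-744-5p, were chosen after their values were seen. The comparison and all lists were chosen with earlier results of these data known. RefSeq mature sequences matched 986 arms.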

Additional observations from a re-analysis of the deposited data

Results flagged for a closer look

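Arms among those with the largest or smallest ratio of CHIR99021 to DMSO were examined in the retinoic acid and vitamin C libraries, which the comparison does not use. An arm is given here where its level was at least 100 CPM and at least 2-fold above both vehicles. In vitamin C, miR-331-3p was at 652 CPM, 10.8-fold above DMSO (9.01 to 13.1), and miR-378c-5p at 112 CPM, 3.08-fold above DMSO. Both arms were also higher with CHIR99021. In retinoic acid, miR-6236-5p was at 2584 CPM and miR-690-3p at 1905 CPM, 5.28-fold and 2.65-fold above DMSO, and these too were higher with CHIR99021. Of the 10 arms with the smallest called ratio of CHIR99021 to DMSO, 5 also met these limits in retinoic acid. No such share was counted over all compared arms, so this number is not read as a trait of the retinoic acid library. miR-181a-5p was at 4620 CPM there, 10.1-fold above DMSO (9.36 to 10.8), and miR-181b-5p at 5723 CPM, 8.45-fold above DMSO (7.96 to 8.97). miR-154-3p was at 901 CPM, miR-669a/669o-3p at 1825 CPM and miR-466f-2-3p at 545 CPM in that library, 2.15-fold, 2.96-fold and 2.31-fold above DMSO.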

How the results depend on the processing

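No paired analysis was possible because each group had 1 library and the labels give no shared replicate. Neither the number of arms higher nor the number lower in CHIR99021 moved by more than 1.5 times under TMM or median-of-ratios scaling, without a minimum level, without shared or single tags, with untemplated ends, with each arm's leading tag only, with tags of 20 to 24 bases, with ddH2O alone or both vehicles summed as control, or with a pseudocount of 5. The arms behind these numbers were not all the same. Of the 30 higher and 59 lower arms, 21 and 46 were called alike on leading tags only, and 16 and 30 against ddH2O. Scaled to all tags there were 5 higher and 267 lower. At 100 CPM or more there were 9 and 26 (fewer arms were compared), and at 1.5-fold 50 and 120. The number of the 21 lists with a median below 0 was 10, and it was 21 when scaled to all tags and 17 against ddH2O. Scaled to all tags the median of miR-290-295 was -0.52 and that of the Hox list -0.061, which was -0.054 against ddH2O. At 100 CPM or more the medians of the muscle and heart list and the endoderm and liver list were 0.03 and 2.69, with fewer arms left in each. Of the 35 named arms that were called, 22 were called the same way against ddH2O, where miR-296-3p was at 0.67, miR-455-5p at -0.021 and miR-499-5p at -0.087 on the log2 scale. Without shared tags miR-378c-5p was at -2.21, a value from few DMSO tags and no CHIR99021 tag. The log2 ratio of miR-122-5p ran from 4.76 to 5.82 and that of miR-485-3p from -3.00 to -1.56 over all alternatives. Apart from shared tags and smaller sets of arms, the cause of these shifts was not tested. Depth limits arms under about 10 CPM, where a library holds few tags.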
